A study of Mus musculus with 78 samples.

Results

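The neuropeptide precursor genes Cartpt, Penk, Sst, Crh, Tac1 and Cck were followed through the sorted cell types of the adult mouse retina. They were taken by gene symbol: each of the 6 has 1 probe set that carries its symbol alone, among 19301 genes with such a probe set. RNA of 200 fluorescent cells per sample was measured on Affymetrix Mouse Gene 1.0 ST arrays, which carry probes along the whole transcript, after a 15 min dissociation with papain and sorting by fluorescence. There are 78 arrays in 26 sets of 3 biological replicates, from 22 transgenic lines.

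The amacrine class has 9 lines. Arc (Tg(Arc-EGFP)194Gsat/Mmcd) was measured as 3 sets, labelled 1st, 2nd and 3rd and named by the study design as the control for batches. The other lines with a green reporter driven from a bacterial artificial chromosome are Igfbp2 (Tg(Igfbp2-EGFP)17Gsat), Rgs5 (Tg(Rgs5-EGFP)24Gsat), Chrna3 (Tg(Chrna3-EGFP)BZ135Gsat/Mmnc), Fam81a (Tg(6430514L14Rik-EGFP)95Gsat), Fbxo32 (Tg(Fbxo32-EGFP)138Gsat/Mmcd) and Ier5 (Tg(Ier5-EGFP)267Gsat). In the lines Crh (Tg(Crh-Cre)282Gsat/Mmnc) and ChAT (129S6-Chat_tm1(cre)Lowl/J), Cre recombinase switches on a red reporter of the cross partner, Rosa26-LSL-RFP. Cells that expressed Cre only earlier in life carry that reporter too. ChAT holds the starburst amacrine cells. The ganglion class has the lines PV (129SVCB6(PV-CRE#32)SA-09, crossed to ThyStopY), Drd4 (Tg(Drd4-EGFP)W18Gsat/Mmnc), Grik4 (C57BL/6-Tg(Grik4-Cre)G32-4Stuj) and the melanopsin line Opn4 (mOpn4-Cre1D4), the last 2 with the same red reporter. For Drd4 the labels give a green reporter in the line name and a red one in the description. The remaining sets are the rod line b2 (b2-Cre, 3 sets named b2 1st, b2 2nd and b2 single) and the cone lines Chrnb4 (Tg(Chrnb4-EGFP)1Gsat) and d4 (d4-Cre). To these come the horizontal cell line Gja10 (B6Cf1-Tg(Gja10-Cre, #14)BR), 4 bipolar lines and the microglia line Csf2rb2 (Tg(Csf2rb2-EGFP)334Gsat). The bipolar lines are mGluR6 (B6Cf1-Tg(mGlur6-Cre)BR), Kcng4 (B6Cf1-Tg(Kcng4-CreERT2, #)BR), Pcp2 (B6:FVB-Tg(Pcp2-EGFP)2Yuza) and Lhx4 (Tg(Lhx4-EGFP)199Gsat). The Cre lines among these sets were also crossed to Rosa26-LSL-RFP. All samples are labelled as adult and of a mixed FVB/N-Swiss Webster and C57BL/6J background. Founders from the resource centres carried a recessive mutation that makes photoreceptors degenerate and were crossed out to C57BL/6J before use. Exact ages are not given.

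Neuropeptides are cut from longer precursor proteins by convertases, trimmed and often amidated, stored in dense-core vesicles and released to act on G protein-coupled receptors, often at some distance. In the retina most of them are made by amacrine cells, the inhibitory interneurons of the inner retina, and a given peptide usually marks 1 or a few amacrine types, so a precursor transcript can serve as a label of cell identity. Amacrine cells use a peptide beside GABA or glycine.

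The precursors have distinct roles. Cartpt encodes the cocaine- and amphetamine-regulated transcript peptides, which in mouse retina also mark direction-selective ganglion cells. Tac1 encodes substance P and neurokinin A, and Cck the cholecystokinin peptides. Sst encodes somatostatin, Crh corticotropin-releasing hormone, and Penk the enkephalins, which are opioid peptides.

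Upstream sequences of 4 members are shown because they are the members with an entry in the RefSeq promoter table and because their patterns over cell types differ. Each run is the 250 bases before the start site used in that table (GRCm38.p6), read 5′ to 3′ on the gene's strand. Capitals mark 3 short motifs that were searched on both strands and were chosen after the sequences were seen. They are the cAMP response element TGACGTCA, a palindrome, its half-site CGTCA, which lies within it on both strands, and the E-box CACGTG. The windows are chr13:99900684-99900933 on the minus strand for Cartpt, chr16:23890845-23891094 on the minus strand for Sst, chr6:7554811-7555060 on the plus strand for Tac1 and chr9:121495695-121495944 on the minus strand for Cck. The starts and whole windows of Cartpt and Sst lie inside the RefSeq spans of these genes, chr13:99898483-99910179 and chr16:23889573-23891342. The other genes lie at chr6:7555061-7562978 (Tac1), chr9:121489824-121495694 (Cck), chr4:4133536-4138815 (Penk) and chr3:19693401-19695396 (Crh).
Cartpt: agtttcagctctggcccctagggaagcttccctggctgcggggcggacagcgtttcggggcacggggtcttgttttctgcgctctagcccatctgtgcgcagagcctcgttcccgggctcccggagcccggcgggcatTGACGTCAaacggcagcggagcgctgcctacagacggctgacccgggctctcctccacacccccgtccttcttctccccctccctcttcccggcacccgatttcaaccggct
Sst: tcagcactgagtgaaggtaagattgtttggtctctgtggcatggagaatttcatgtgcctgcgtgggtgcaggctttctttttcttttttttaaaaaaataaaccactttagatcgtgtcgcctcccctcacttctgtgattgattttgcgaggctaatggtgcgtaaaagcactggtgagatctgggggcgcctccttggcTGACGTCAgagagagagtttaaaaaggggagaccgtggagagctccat
Tac1: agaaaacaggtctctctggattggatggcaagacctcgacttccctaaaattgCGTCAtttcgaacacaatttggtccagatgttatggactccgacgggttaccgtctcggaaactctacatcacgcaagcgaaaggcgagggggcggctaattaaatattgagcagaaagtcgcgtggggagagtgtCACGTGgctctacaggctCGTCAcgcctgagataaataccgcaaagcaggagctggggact
Cck: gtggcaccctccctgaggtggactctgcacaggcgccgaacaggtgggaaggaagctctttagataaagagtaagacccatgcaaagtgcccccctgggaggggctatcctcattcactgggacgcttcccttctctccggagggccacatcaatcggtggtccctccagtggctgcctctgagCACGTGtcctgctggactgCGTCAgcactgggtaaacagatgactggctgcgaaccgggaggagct

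The full element TGACGTCA was found once in Cartpt, 112 to 105 bases before the start, and once in Sst, 48 to 41 bases before it. It occurs in 1.55% of the 32851 windows of the same length in the table. Tac1 and Cck held the half-site without the full element, Tac1 at 2 places and Cck at 1, against 17.8% of windows with at least 1 half-site. Both also held 1 CACGTG, at 61 to 56 bases before the start in Tac1 and 66 to 61 in Cck, and 6.02% of windows hold one. A match describes these letters only and no binding was measured. Penk and Crh have no entry.

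Intensities are given on the linear scale as deposited, and means and differences on the log2 scale after raising every value to a common floor of 3.99. On 70 arrays the lowest values merely follow the order of probe set identifiers. The floor is the highest value at which such a run ended on any array, and on other arrays the runs ended at or below it. The median of all values is 9.01. The amacrine identity of the 9 lines was checked first: the 8 amacrine markers summed to between 752 and 1528 on the arrays of the amacrine lines. Outside that class their sum was at most 702, highest in the horizontal set, followed by Grik4 and Drd4. Starburst markers summed to 1480 to 1667 in ChAT. Markers of other cells were high in some sets. Cone markers summed to 832 to 1858 in Chrna3, rod markers to 284 to 2372 and Müller glia markers to 603 to 3383 in Crh, and pericyte markers to 287 to 417 in Rgs5. The pericyte list includes the Rgs5 gene, by whose reporter that line was sorted. Drd4 and Grik4 carried Müller glia markers at 1458 to 6000 and 860 to 3173. Arrays within a set correlated across genes at r of 0.733 or more, lowest in Crh, then Chrna3 at 0.793 and Drd4 at 0.798. The replicates are labelled biological. In sorted pools, fewer cells of a type and less RNA per cell cannot be told apart.

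A gene was tested where a set mean exceeded the median intensity in at least 1 of the 26 sets, which 15130 genes did. All 6 members passed: Cartpt in 25 sets, Sst in 22, Tac1 in 19, Cck in 18, Penk in 7 and Crh in 2, Crh and Rgs5. Crh thus entered only through the sets where it was high. A gene was called in a comparison where the adjusted p was below 0.05 and the difference at least 1 log2 unit. In 54 comparisons of a member in 1 amacrine line with the mean of the other 8, 9 were called higher and 9 lower, against 1.64% higher and 2.32% lower over all genes in the same 9 comparisons. Each line mean rests on 3 arrays, that of Arc on 9. The comparisons share lines and are not independent. Among the 9 higher calls is Crh in the line selected by its promoter, and the lower calls of Crh in Arc and ChAT rest on that line in the reference. The members were chosen with earlier results of these data known, so the counts do not test them as a group.

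Cartpt transcript was high in the Arc amacrine line and in the Drd4 ganglion line, intermediate in 4 other amacrine lines and the PV ganglion line, and low in starburst cells. The Arc 1st arrays read 1884, 1682 and 992, those of Arc 2nd 1702, 1307 and 1073, and those of Arc 3rd 2437, 1193 and 1178. All 9 Arc arrays lay above every array of the other 8 amacrine lines. Arc exceeded the mean of the others by 3.91 log2 units (SE 0.34, n = 9 arrays, adjusted p = 1.49e-13), in a comparison where 1.24% of genes were called. Within batch 1 and within batch 3 the difference was 3.82 and 4.41, each called.

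Next in order stood Fbxo32 with intensities of 219, 690.4 and 518, Fam81a with 241, 449 and 376, Ier5 with 316, 283 and 226, and Igfbp2 with 199.6, 300.1 and 338. These 4 lines and PV (266, 281 and 271) overlapped from one to the next and formed a step of their own, below Arc and above the following sets. Fbxo32 was called higher than the other amacrine lines by 1.95 log2 units (SE 0.53, adjusted p = 0.0437), with 0.839% of genes called. That call sits at the threshold. It ended under 15 of 53 alternatives, among them those without Fbxo32 replicate 2 (1.60, adjusted p = 0.533) or replicate 3 (1.81, adjusted p = 0.298), and without ChAT in the reference (1.49, adjusted p = 0.255).

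At the low end of the amacrine lines, ChAT read 16.6, 8.74 and 11.4, which overlapped bipolar and photoreceptor arrays. Its difference from the other amacrine lines was -3.87 log2 units (SE 0.53, adjusted p = 1.84e-07), in a comparison where 2.90% of genes were called. The Crh line read 33.6, 29.8 and 23.2 and was lower, at -2.45 (SE 0.53, adjusted p = 2e-04). This comparison called 17.7% of all genes, the most of any line, so a called gene is common there. Rgs5 read 32.6, 60.0 and 49.6 and was not called against all lines (-1.67, adjusted p = 0.15), but was called lower within batch 3 (-2.31, adjusted p = 0.00292).

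Chrna3 read 73.1, 11.0 and 80.8 for Cartpt, 1 array well below the other pair. Its difference of -1.89 (SE 0.53, adjusted p = 0.00987) was called, where 6.93% of genes were. Without Chrna3 replicate 2 it was -0.96 (adjusted p = 0.303), and with Arc left out of the reference -1.42 (adjusted p = 0.0662). With batch as a term it was -2.07 (adjusted p = 0.0825).

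Among ganglion lines, Drd4 read 878, 1477 and 1942 for Cartpt, and its arrays overlapped those of Arc. PV was tightly grouped, Opn4 read 156, 71.3 and 77.9, and Grik4 read 39.6, 23.1 and 33.9. Drd4 exceeded the mean of the other 3 lines by 3.86 log2 units (SE 0.58, adjusted p = 4.8e-06), with 5.73% of genes called. Grik4 was lower, at -3.39 (SE 0.58, adjusted p = 4.77e-05), with 1.84% called. No Drd4 array overlapped another ganglion line, and the same was true of Grik4 at the low end. Within batch 3 the differences were 4.64 and -3.52. Drd4 and Grik4 both carry markers of Müller glia, endothelial cells and pigment epithelium. Amacrine markers summed to 330 to 557 in Drd4 and 448 to 601 in Grik4, against 165 to 228 in Opn4 and 188 to 212 in PV. Bipolar markers summed to 268 to 987 in Drd4 and 108 to 265 in Grik4. The part of all these cells in the Cartpt values was not tested. In the microglia set the Müller glia list, of which Apoe is a part, summed to 2708 to 5024, and Cartpt was 25.1 to 27.3. Whether that set holds Müller glia was not tested.

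Outside the amacrine and ganglion classes Cartpt ranged from 1.24 to 106 with a median of 17.7 over 33 arrays, and b2 single (64.0, 75.1 and 81.6) was the highest set there. The order of the 26 sets begins with Arc 3rd, Arc 1st, Drd4 and Arc 2nd, whose arrays overlap from one to the next. A gap follows, then the 5 intermediate sets, another gap, and Opn4 with b2 single. From Rgs5 down to d4 every set overlapped the next one.

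Tac1 was present at high intensity in most amacrine and in all ganglion lines and was low in starburst and bipolar cells, where no array passed 25.2. The Crh line was highest with 1957, 2537 and 3070.4, followed by Igfbp2 with 2103, 2127 and 2178. Arc 3rd read 1742, 1692 and 1565 and Arc 2nd 1991, 1429.5 and 1575. Rgs5 read 929.9, 815 and 846. Fbxo32 read 544, 327 and 885, Chrna3 238, 278 and 283, and Ier5 347, 121 and 95.7. Fam81a was the most scattered amacrine set with 47.5, 992 and 372.

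The Arc line did not give 1 level of Tac1. Arc 1st read 121, 108 and 115, while every array of Arc 2nd and Arc 3rd was at 1429.5 or above, so the first set did not overlap the later ones. The difference was -3.85 against Arc 2nd (SE 1.03, adjusted p = 0.272) and -3.86 against Arc 3rd (SE 1.03, adjusted p = 0.0589), neither called. The SE is that of the spread pooled over all 26 sets, which for Tac1 is wide. Between Arc 2nd and Arc 3rd the difference was -0.01. These comparisons called 0.0463%, 0.549% and 0.0595% of genes for 1st against 2nd, 1st against 3rd and 2nd against 3rd. With a floor at the median of all values, Tac1 was called between Arc 1st and Arc 3rd (-3.86, adjusted p = 0.016). The other 5 members differed by at most 0.52 log2 units between any pair of Arc sets. The neuropeptide precursors Vip and Npy were also lower in Arc 1st, against Arc 3rd at -5.54 (adjusted p = 3.28e-18) and -5.00 (adjusted p = 3.38e-05). So was Cbln4, which is not a neuropeptide precursor gene, at -2.95 (adjusted p = 3.39e-06).

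Batch labels run alongside the Tac1 levels. In batch 3 the 12 amacrine arrays ranged from 815 to 3070.4 with a median of 1849, and in batch 1 the 12 amacrine arrays ranged from 0.533 to 992 with a median of 111. Ganglion arrays ranged from 594 to 1162 in batch 3 and from 249 to 498 in batch 1, where PV is the only such line. Bipolar arrays of batch 3 ranged from 0.0532 to 8.79. Arc is the only amacrine line measured in both labelled batches.

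**Figure D1:**
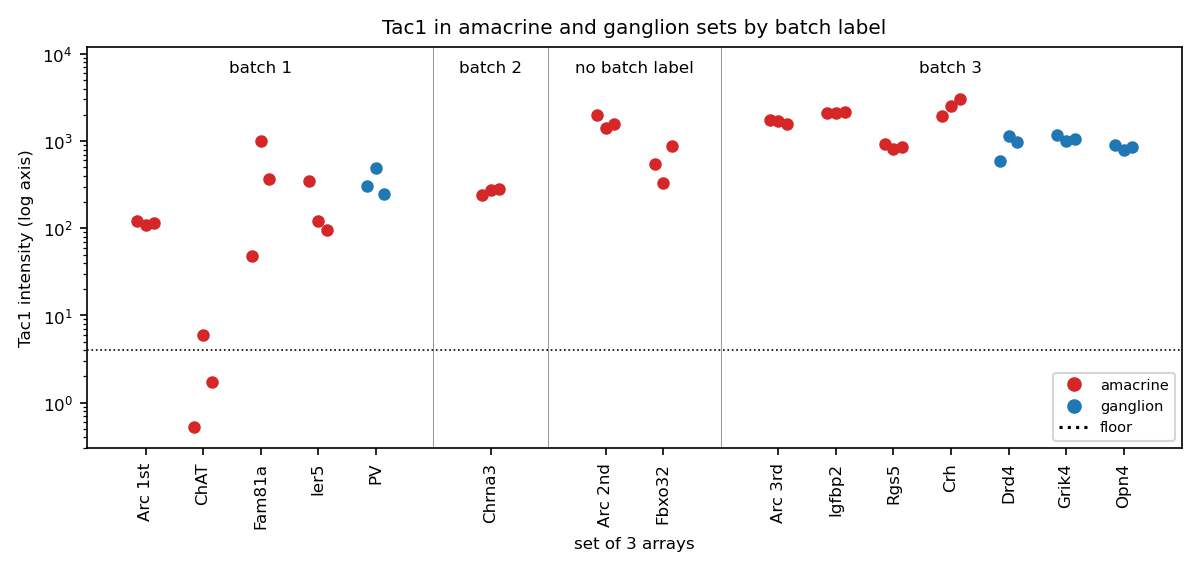
Tac1 intensity on a log axis for every array of the amacrine (red) and ganglion (blue) sets, grouped by batch label, with the floor of 3.99 dotted. Amacrine arrays of batch 3 sit between 815 and 3070.4 and those of batch 1 between 0.533 and 992, and the 3 arrays of Arc 1st lie below all arrays of Arc 2nd and Arc 3rd.

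Compared over all batches, Tac1 was higher in Crh by 3.17 log2 units (SE 0.77, adjusted p = 0.000774) and in Igfbp2 by 2.92 (SE 0.77, adjusted p = 0.0212), where 1.47% of genes were called for Igfbp2. Neither call held within batch 3, at 0.77 (adjusted p = 0.056) and 0.48 (adjusted p = 0.851), nor with batch as a term, at 1.65 (adjusted p = 0.283) and 1.41 (adjusted p = 1). For Igfbp2 the call was also lost without any 1 of its arrays (2.91 to 2.94, adjusted p = 0.142 to 0.153), without ChAT in the reference (2.07, adjusted p = 0.22) and without the floor (3.10, adjusted p = 0.133). Within batch 3 it was Rgs5 that was called, at -1.26 (adjusted p = 0.0312).

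Starburst cells stood apart in Tac1. The ChAT arrays read 0.533, 5.97 and 1.73, and only 1 of 3 was above the floor. The difference from the other amacrine lines was -7.06 log2 units (SE 0.77, adjusted p = 2.62e-10) with arrays below the floor counted at it, and -8.43 without the floor. Every array of the other 8 lines was above 47. Within batch 1 the difference was -5.20 (adjusted p = 0.0134).

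In the ganglion class, Grik4 read 1162, 992 and 1048 for Tac1, Drd4 594, 1135 and 988, Opn4 912, 799 and 846, and PV 309, 498 and 249. No ganglion line was called against the other 3 for Tac1. Amacrine markers summed to 448 to 601 in Grik4, 330 to 557 in Drd4, 165 to 228 in Opn4 and 188 to 212 in PV. Their part in the Tac1 values was not tested. The ganglion class as a whole was higher than the mean of the other 5 classes by 3.61 log2 units (SE 1.07, 22 line means, adjusted p = 0.0383), where 4.42% of genes were called. The call ended without the floor (4.13, adjusted p = 0.0502), without the lines b2 (3.50, adjusted p = 0.0515), Drd4 (3.52, adjusted p = 0.117), Grik4 (3.42, adjusted p = 0.108) or Opn4 (3.53, adjusted p = 0.093), and without replicate number 1 (3.56, adjusted p = 0.0578) or 2 (3.39, adjusted p = 0.0733). In lines of batch 3 alone it was 3.09 (adjusted p = 0.00159), and in batch 1 alone 4.21 (adjusted p = 0.478).

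For the amacrine class no member was called against the other classes, where 2.82% of genes were. Tac1 differed by 2.38 log2 units (SE 0.85, adjusted p = 0.102) and Cartpt by 2.14 (SE 0.84, adjusted p = 0.145). The spread here is that between lines, and both genes include the low starburst line.

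Other sets held Tac1 on single arrays. Chrnb4 replicate 3 read 1018 against 1.41 and 0.628 on the other pair of arrays, and b2 2nd replicate 2 read 399 against 2.01 and 45.4. The summed amacrine markers were 401 on that Chrnb4 array against 169 and 214 on the other pair, and 175 against 136 and 172 in b2 2nd. Their part in the Tac1 values was not tested. Without the Chrnb4 array the ganglion class difference was 3.79 (adjusted p = 0.035). The d4 cones read 48.1, 56.7 and 20.1, the horizontal cells 96.2, 31.2 and 135, and the microglia 278, 368 and 153. All arrays of the horizontal and microglia sets lay above the bipolar range, which d4 overlapped. Amacrine markers in the microglia set summed to 116 to 157, within the 101 to 189 of the bipolar sets, and in the horizontal set to 616 to 702. The part of amacrine cells in the Tac1 values of either set was not tested.

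Cck had a different distribution: it was highest in the mGluR6 line of ON bipolar cells, then in starburst cells and the Ier5 amacrine line, with an intermediate level in ganglion lines. The mGluR6 bipolar arrays read 426, 382 and 482, those of ChAT 321, 296 and 251, and those of Ier5 197, 194 and 245. These 3 sets did not overlap one another or the next set, Opn4, in the order of set means. ChAT lay 3.98 log2 units above the other amacrine lines (SE 0.59, adjusted p = 1.39e-06) and Ier5 3.47 above (SE 0.59, adjusted p = 7.81e-05), the latter where 2.02% of genes were called. Within batch 1 the differences were 3.86 and 3.27, both called. ChAT therefore was the highest amacrine line for Cck and the lowest for Tac1 and Cartpt.

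Cck was near the floor in Fam81a, with 5.16, 4.58 and 4.05, and in Fbxo32, with 3.11, 4.65 and 5.14. Fam81a was lower than the other amacrine lines, at -2.74 log2 units (SE 0.59, adjusted p = 0.00272), where 1.71% of genes were called. The difference was -4.10 within batch 1 and lost its call with batch as a term (-2.69, adjusted p = 0.0639). Fbxo32 was lower, at -2.75 (SE 0.59, adjusted p = 0.00365), a call lost without Fbxo32 replicate 1 (-2.65, adjusted p = 0.0602) or 2 (-2.76, adjusted p = 0.0536).

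The 9 Arc arrays read 4.32 to 19.0 for Cck and were lower, at -1.47 (SE 0.38, adjusted p = 0.011). That call rests on the lines at the top: without ChAT in the reference it was -0.99 (adjusted p = 0.17) and without Ier5 -1.05 (adjusted p = 0.132), and it was not called with any 1 Arc set alone. Within batch 1 it was -3.03 and called, and within batch 3 -0.72 (adjusted p = 0.799). Igfbp2 (9.19 to 20.7) and Rgs5 (10.5 to 16.0) were at a like level.

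In 2 amacrine lines the 3 arrays for Cck disagreed. Chrna3 read 11.6, 23.2 and 256, and the Crh line 10.9, 162 and 37.0. Neither was called.

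Ganglion lines held Cck at 104, 89.1 and 105 in Opn4, 59.9, 185 and 51.7 in Grik4, and 177, 61.6 and 47.9 in Drd4, overlapping throughout. Bipolar markers summed to 268 to 987 in Drd4, 108 to 265 in Grik4, 31.7 to 148 in Opn4 and 34.3 to 40.7 in PV, against 1405 to 1417 in mGluR6, and their part in the Cck values was not tested. PV read 19.3, 10.4 and 48.9 and was lower, at -2.02 log2 units (SE 0.65, adjusted p = 0.0302), where 5.84% of genes were called. The call ended without PV replicate 1 (-1.95, adjusted p = 0.108) or 2 (-1.50, adjusted p = 0.251), without Drd4 replicate 1 (-1.84, adjusted p = 0.0698), Grik4 replicate 2 (-1.83, adjusted p = 0.0673) or the whole Drd4 line (-2.08, adjusted p = 0.0557). With batch as a term it was -1.38 (adjusted p = 0.74), and PV is the only ganglion line of batch 1. Among bipolar lines Pcp2, labelled as rod bipolar cells, read 41.5, 17.2 and 85.5, while Kcng4 and Lhx4 ran from 4.44 to 38.5. Photoreceptor arrays had a median of 3.40, with b2 2nd replicate 3 alone at 63.0.

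**Figure D2:**
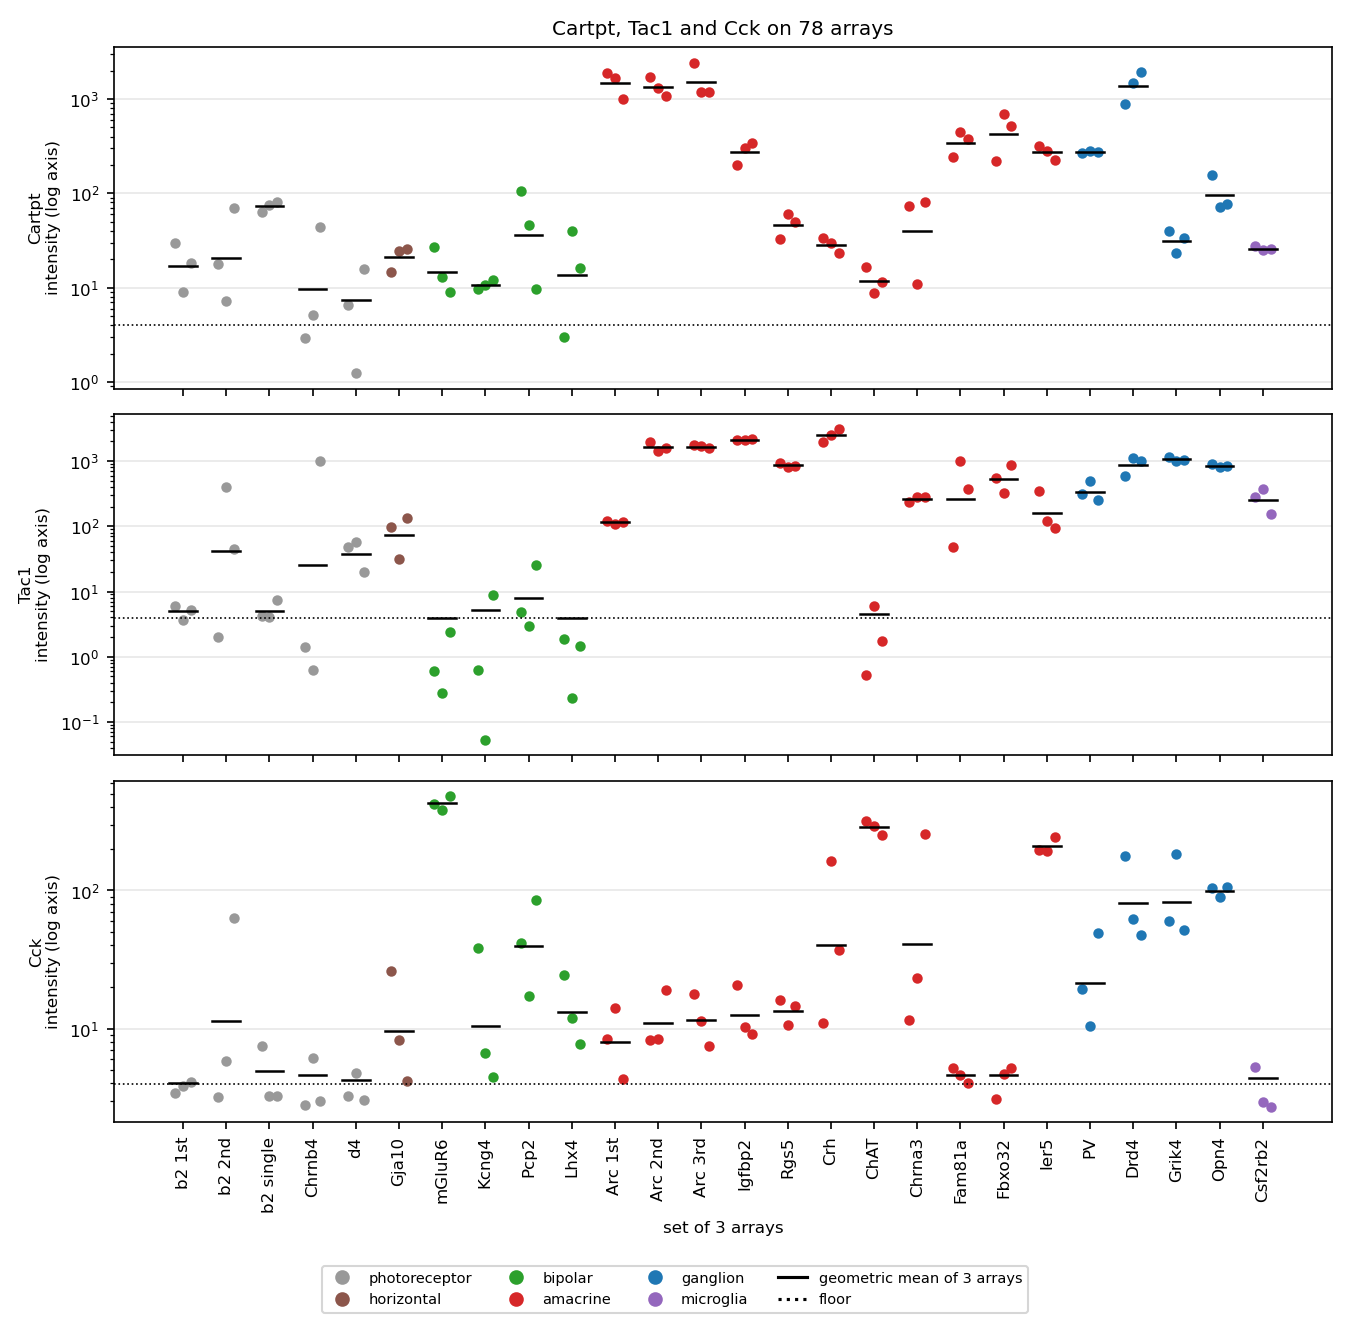
Intensities of Cartpt, Tac1 and Cck on a log axis for all 78 arrays in 26 sets, coloured by class, with the geometric mean of each set after flooring (bar) and the floor of 3.99 (dotted). Cartpt stands out in the Arc and Drd4 sets, Tac1 is low in ChAT and the bipolar sets, and Cck is highest in mGluR6, ChAT and Ier5.

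The remaining precursors were each high in few sets. Crh was high in the line that bears its name, where its promoter drives Cre: the arrays read 221, 355 and 368. Over the 75 arrays of all other sets it ranged from 2.30 to 103, and 27 of them were above the floor. The fitted difference from the other amacrine lines was 5.80 log2 units (SE 0.39), with values below the floor counted at it. It was 5.94 without the floor and 5.61 within batch 3. These cells were sorted through the Crh promoter, and Crh passed the filter only through the Crh and Rgs5 sets. The difference is therefore a description, and its call is not independent support. Tac1 was at its highest and Cartpt was low in the same 3 arrays. Rod and Müller glia markers vary widely there, rod markers from 284 to 2372, and Crh was at 2.30 to 4.07 on the rod sets. In the microglia set, where the summed Müller glia list was high, Crh was at 3.18 to 3.71, and whether that set holds Müller glia was not tested.

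Crh was seen on single arrays elsewhere. Rgs5 replicate 2 read 103 against 2.97 and 8.94 on the other pair, and Ier5 replicate 2 read 33.4 against 3.87 and 5.19. Arc and ChAT, all of whose arrays were at the floor, were called lower at -1.25 (adjusted p = 0.000367 and 0.0453). Those calls rest on the Crh line as part of the reference, for without it both differences were -0.54 (adjusted p = 0.42 and 0.678). With 4 lone arrays left out, those of Rgs5 and Ier5 among them, both fell just short of 1 unit (adjusted p = 9.58e-07 and 0.00152). Within batch 3, where the Crh line is 1 of the 3 reference lines, Igfbp2 was called lower as well (-2.72, adjusted p = 0.0049). Opn4 and Drd4 each had 1 ganglion array above 10, at 10.4 and 14.8.

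Sst was raised in the Chrna3 line alone among the 26 sets. Its arrays read 111, 36.3 and 80.8, and the other 75 arrays ranged from 6.45 to 21.6, without overlap. The difference from the other amacrine lines was 2.80 log2 units (SE 0.19, adjusted p = 1.13e-17). It was called under each of the 54 alternatives computed, between 2.46 and 3.26. The Chrna3 line is the only amacrine line labelled as batch 2, so line and batch cannot be told apart within the class by these labels. With batch as a term, estimated through the Arc and b2 sets, the difference was 2.89. Sst in the other batch 2 sets, b2 2nd, b2 single and mGluR6, ran from 7.23 to 13.4. Cone markers were above the median intensity for 4 of 5 genes in Chrna3, and Sst in the cone lines was 11.1 to 12.4 in Chrnb4 and 7.94 to 8.84 in d4.

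Penk was low almost everywhere and highest in Rgs5 and Drd4. Rgs5 read 58.6, 18.3 and 89.7, and Drd4 64.6, 19.8 and 51.0. The Crh line read 10.2, 29.8 and 24.3, and 1 Ier5 array reached 204 against 11.6 and 7.55 on the other pair. Over all 78 arrays the median of Penk was 6.51, below the median of all values. Rgs5 exceeded the other amacrine lines by 2.22 log2 units (SE 0.46, adjusted p = 0.00217), where 0.780% of genes were called. It was 2.26 within batch 3, lost its call without Rgs5 replicate 1 (2.04, adjusted p = 0.0732) or 3 (1.73, adjusted p = 0.192), and was 3.09 without the 4 lone arrays. Pericyte markers were above the median intensity for 3 of 5 genes in Rgs5, Rgs5 itself (171 to 199), Acta2 (65.2 to 145) and Kcnj8 (34.8 to 77.8), while Pdgfrb (5.53 to 6.87) and Cspg4 (8.18 to 9.58) were not. The line was sorted by an Rgs5 reporter, so the level of Rgs5 itself is not independent of the sorting. The same markers summed to 88.0 to 259 in Drd4 and 66.5 to 123 in the Crh line, whose Penk values are given above, and to 201 to 332 in Grik4, where Penk read 26.7, 12.6 and 7.53. Their part in the Penk values was not tested.

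Drd4 exceeded the other ganglion lines in Penk by 2.34 log2 units (SE 0.50, adjusted p = 0.00121). The call ended without Drd4 replicate 1 (2.00, adjusted p = 0.0629) and the difference was 2.27 within batch 3. Of the 24 comparisons of a member in 1 ganglion line, 2 were called higher and 2 lower, against 1.78% and 1.76% over all genes. None of the 6 members was called in Opn4 against all 3 other lines, where 0.747% of genes were. Within batch 3 Penk was called lower in Opn4 (-2.19, adjusted p = 0.00709).

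**Figure D3:**
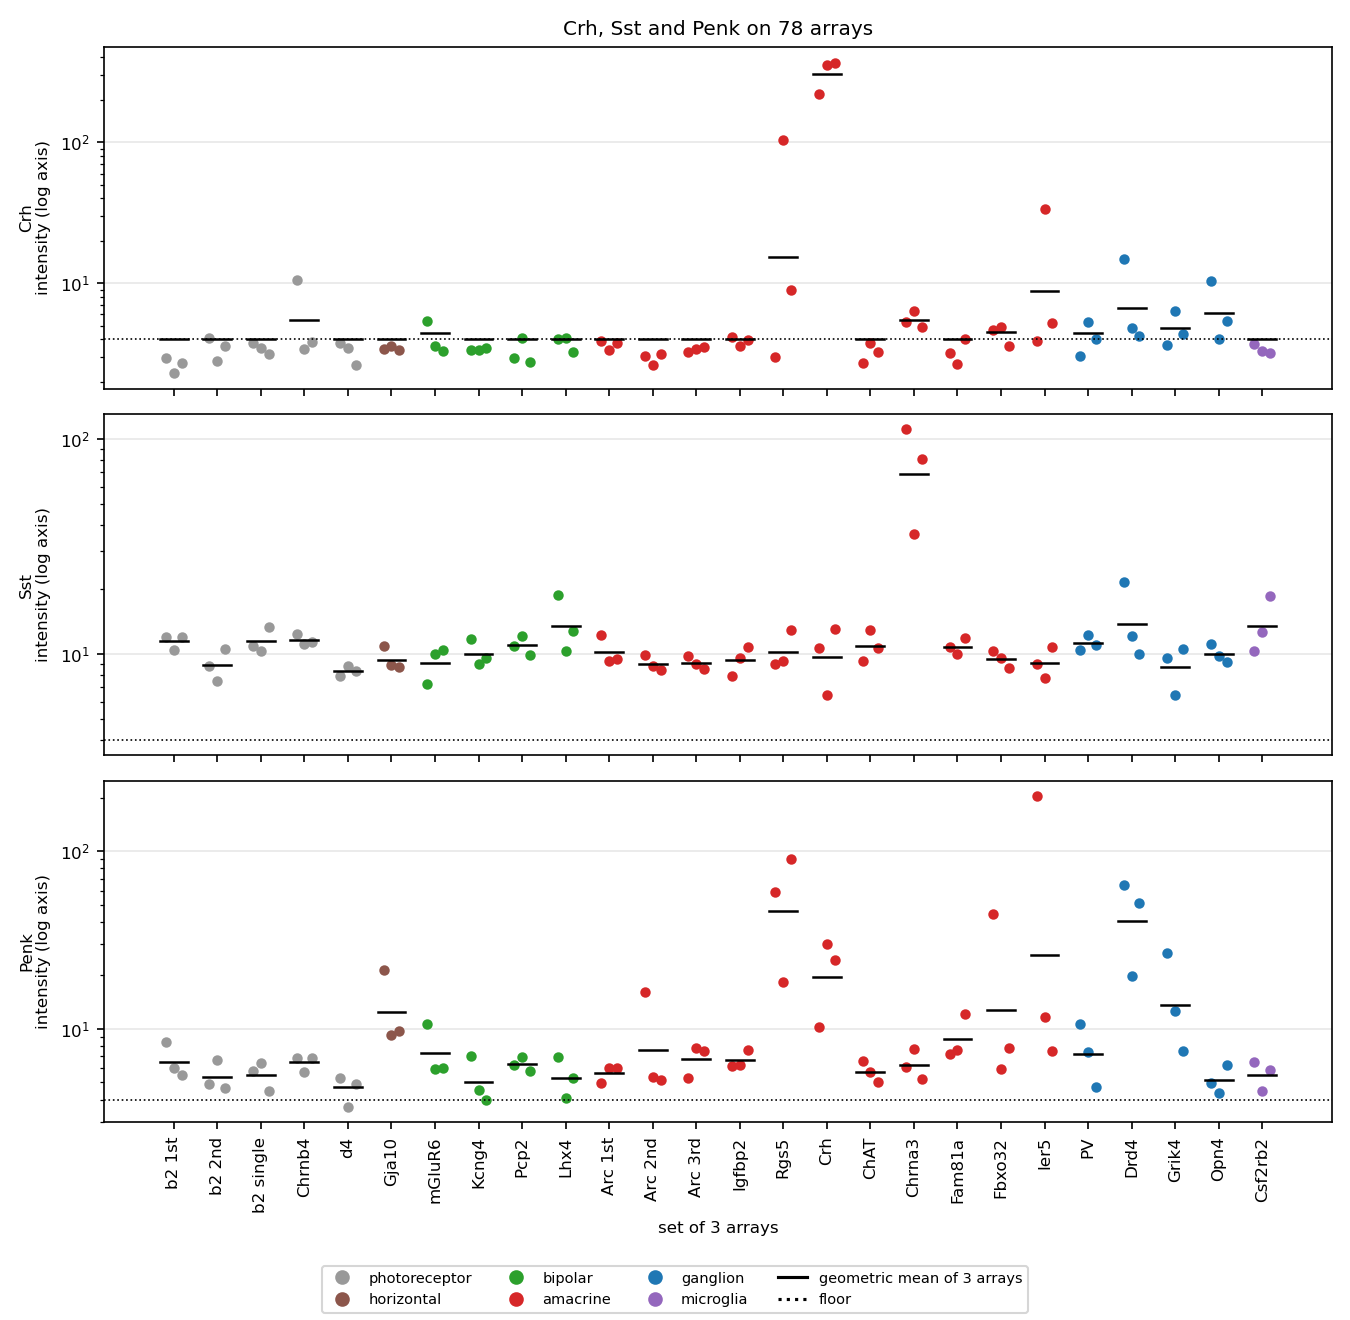
Intensities of Crh, Sst and Penk on a log axis for all 78 arrays, drawn as for the more widely expressed members, with set means after flooring and the floor dotted. Crh stands out in the Crh line and Sst in the Chrna3 line, whose 3 arrays at 36.3 to 111 lie above all others, while Penk is raised in Rgs5 and Drd4 and on 1 Ier5 array.

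**Figure D4:**
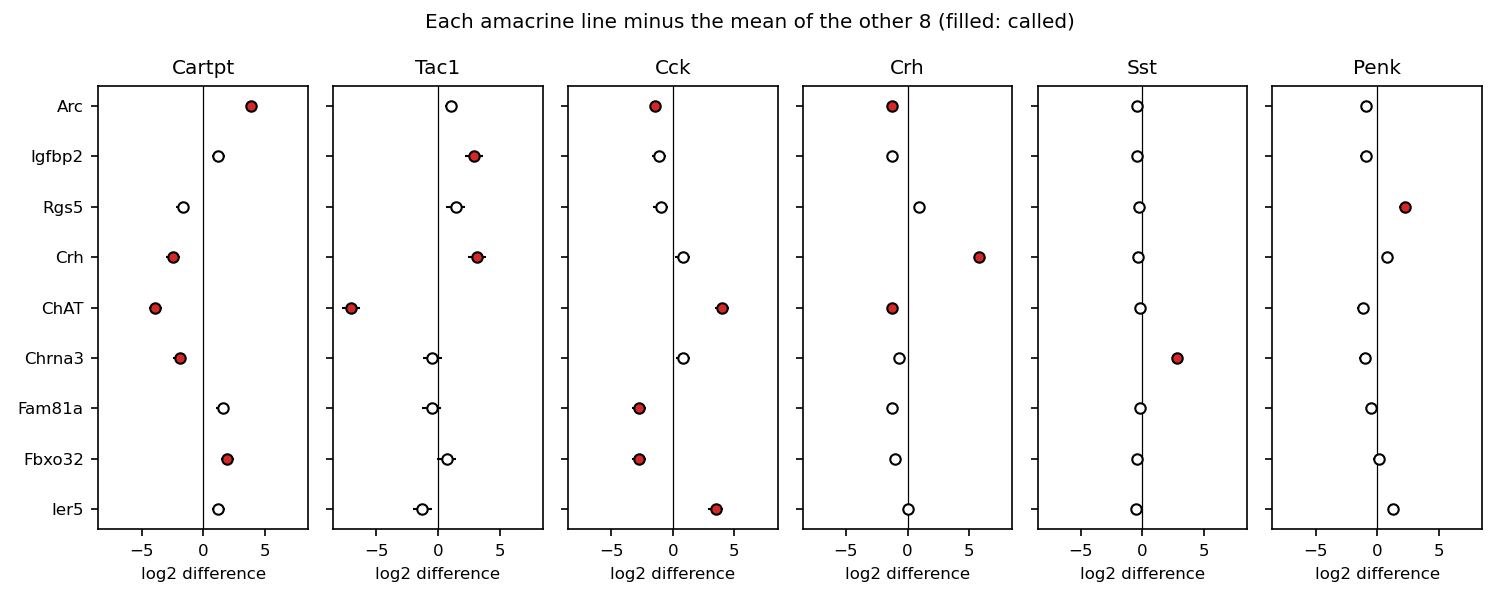
Log2 difference of each amacrine line from the mean of the other 8 for the 6 members, with the SE as a bar and filled points for called differences. ChAT has the largest negative values for Cartpt and Tac1 and a positive one for Cck, and Sst departs from 0 by more than 1 unit only in Chrna3.

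The precursors can also be read line by line. Arc held Cartpt high, with Tac1 high in the later sets and low Cck. Igfbp2 held Tac1 at 2103 or more and Cartpt at an intermediate level. Chrna3 held Sst, and Fam81a and Fbxo32 held Cartpt without Cck. Over the 9 amacrine line means, Tac1 and Cck correlated at r = -0.62 and Cartpt and Cck at -0.59, and over the 22 line means of all classes at -0.08 and 0.01. Tac1 and Cartpt correlated at 0.63 over 22 lines and 0.40 over the 9. These are descriptions of line means that share arrays and batches. Among the 9, ChAT lies far from the mean of the other 8. In log2 it was 2.19 against 9.25 for Tac1, 3.57 against 7.44 for Cartpt and 8.17 against 4.19 for Cck. The correlations over 9 lines include this line, and none was computed without it, so they do not describe the other 8.

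The genes whose line means most resembled a member's were taken by Pearson correlation over the 22 lines among 15129 genes. For Tac1 they were Elavl4, a neuronal RNA-binding protein gene, at 0.90, Rasgrf1, a guanine nucleotide exchange factor gene, at 0.88, and 6330403K07Rik at 0.87. For Cartpt they were Fxyd2 at 0.83, Ccdc184 at 0.76 and the neuronal surface gene Thy1 at 0.75. Penk was most like Vmn1r202 at 0.83, the endothelin gene Edn1 at 0.80 and the smooth muscle gene Tagln at 0.78, all 3 with their highest line mean in Rgs5. Cck was most like Camsap2 at 0.81, Ppp2cb at 0.78 and Armcx6 at 0.76. Sst was most like Olfr895 at 0.91, Tslp at 0.91 and Krt24 at 0.90, and Crh most like 4933402E13Rik at 0.91, Hrc at 0.90 and 9230009I02Rik at 0.89. For Sst and Crh the likeness is that of a single high line. In the line where each named gene was highest, the geometric mean ranged from 9.11 for 4933402E13Rik to 2375 for 6330403K07Rik. Tagln reached 15.6. Below it came Armcx6 (15.2), Camsap2, Tslp, Olfr895 (13.8), Fxyd2 (12.3), 9230009I02Rik (10.8) and Vmn1r202, in this order. These genes lay near the median of all values, 9.01, so their likeness rests on low intensities. Edn1 reached 21.4, and the remaining genes were higher. Over the 9 amacrine lines the gene most like Sst was the cone arrestin gene Arr3 at 0.995, whose Chrna3 arrays read 311, 2.41 and 318.

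Of 16 genes for receptors and binding proteins of these peptides, 12 were tested. Against the other classes, none was called in the amacrine class and 2 were higher in the ganglion class, Crhr1 and Crhbp, where 3.29% of all genes were called higher. The list's median difference was -0.03 in the amacrine class and -0.01 in the ganglion class, against -0.01 and 0.01 over all genes tested. Between lines the differences were larger.

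Sstr2, a somatostatin receptor, was high in the Arc and Igfbp2 amacrine lines. Arc 1st read 151, 140.1 and 136, Arc 2nd 349, 201 and 244, Arc 3rd 943, 403 and 373, and Igfbp2 209, 240.4 and 248. The difference of Sstr2 from the other amacrine lines was 3.31 in Arc (SE 0.30, adjusted p = 6.33e-13) and 3.08 in Igfbp2 (SE 0.47, adjusted p = 6.15e-06). Sst itself was at 7.90 to 12.2 in those 4 sets, at the level of sets outside Chrna3. In Chrna3, the set with Sst, the Sstr2 arrays read 244, 17.9 and 13.2. Sstr2 was lower in ChAT (-1.51, adjusted p = 0.0475) and Ier5 (-1.79, adjusted p = 0.0175).

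Crhr1, the main receptor for corticotropin-releasing hormone, was raised in other amacrine lines than the one with Crh. It was higher in Fbxo32 by 1.70 log2 units (SE 0.31, adjusted p = 0.000276), in Ier5 by 1.62 (SE 0.31, adjusted p = 0.000421) and in Fam81a by 1.17 (SE 0.31, adjusted p = 0.0199), and lower in Arc (-1.09, adjusted p = 7.58e-05) and ChAT (-1.36, adjusted p = 0.00233). The Fbxo32 arrays read 65.4, 82.7 and 87.3 for Crhr1, those of Ier5 125, 42.8 and 75.9, and those of Fam81a 137, 34.8 and 37.2. In Opn4 Crhr1 read 109.6, 76.8 and 79.0 and was higher than in the other ganglion lines by 1.53 (SE 0.34, adjusted p = 0.00588).

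Crhbp encodes a protein that binds corticotropin-releasing hormone and limits its action. It read 58.0, 48.4 and 37.8 in Grik4 and was higher there than in the other ganglion lines by 1.19 (SE 0.20, adjusted p = 2.36e-05). Crhbp was higher in the ganglion class than in the other classes by 1.48 (SE 0.22, adjusted p = 0.000192). For Cckbr, a cholecystokinin receptor gene, the d4 cones read 47.7, 62.1 and 45.9 and the Chrnb4 cones 17.0, 12.0 and 17.8, while every other array was below the median of all values. This pattern of Cckbr was named after its values were seen.

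**Figure D5:**
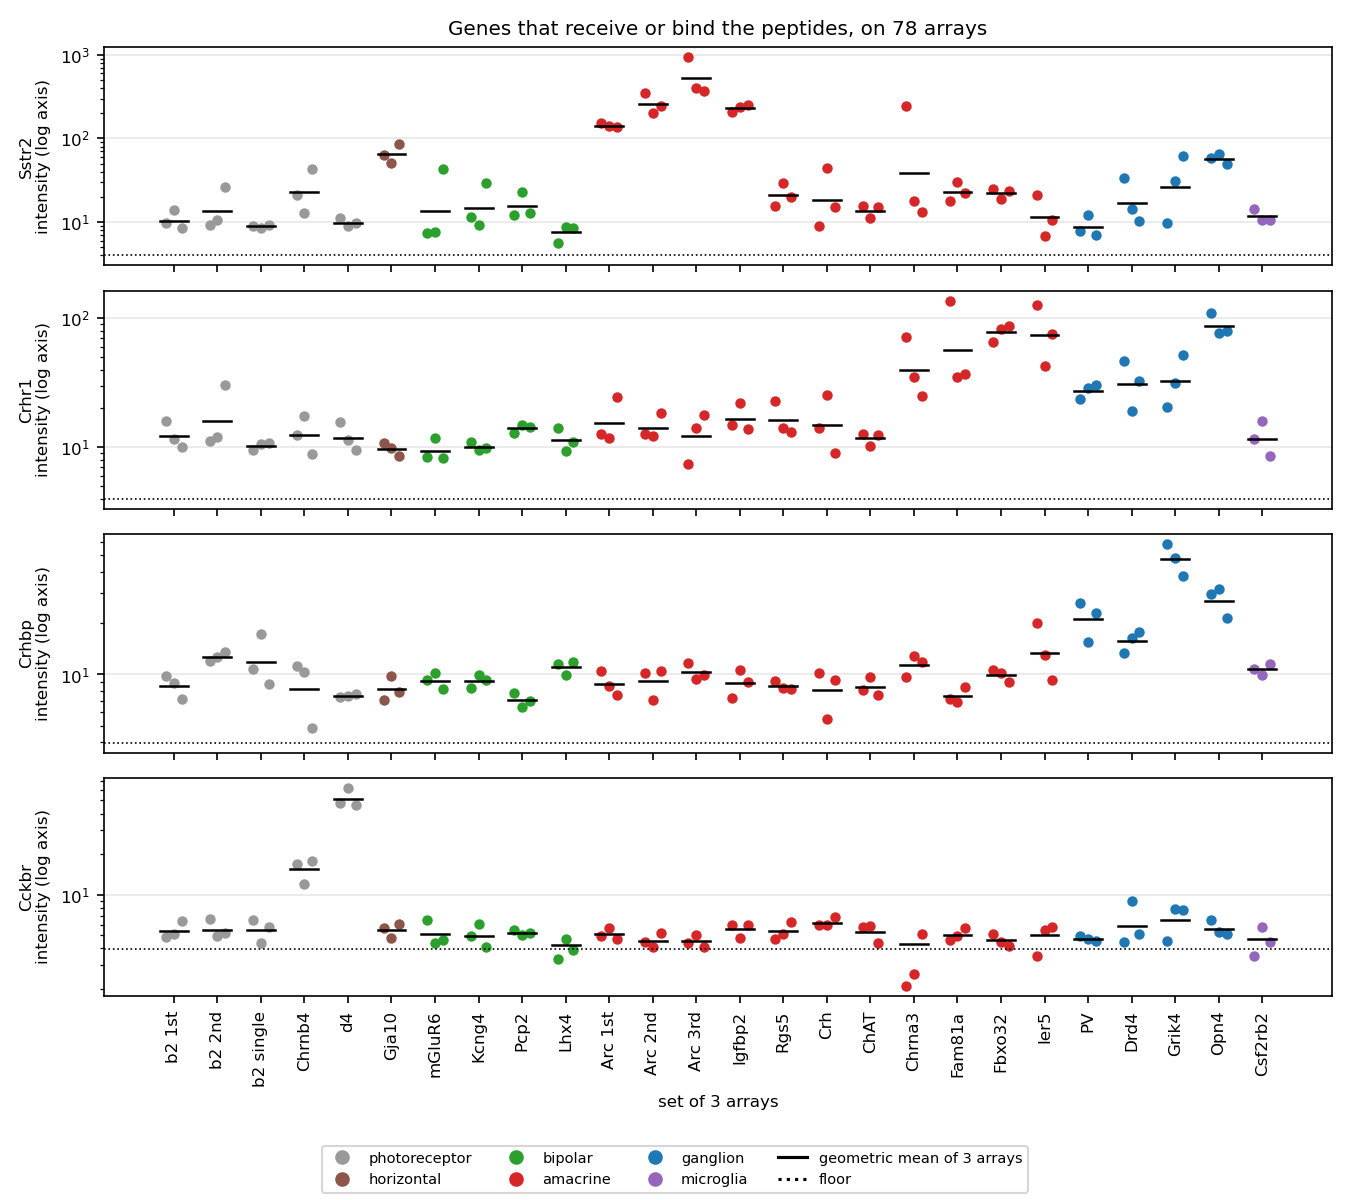
Intensities on a log axis of 2 receptor genes for the peptides, Sstr2 and Crhr1, of Crhbp and of Cckbr, for all 78 arrays in 26 sets, with geometric means after flooring and the floor dotted. Sstr2 is high in Arc and Igfbp2, Crhr1 in Fam81a, Fbxo32, Ier5 and Opn4, Crhbp in ganglion sets with Grik4 highest, and Cckbr in both cone sets.

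The machinery that makes and stores peptides was measured as well. Of 12 processing genes 10 were tested: none was called in the amacrine class (median difference 0.15), and 3 were higher in the ganglion class, Pcsk1 by 1.04, Pcsk1n by 1.24 and Cpe by 1.40 (median 0.56). Pcsk1 encodes a convertase, Pcsk1n its inhibitor and Cpe the carboxypeptidase that trims the fragments. Of 10 dense-core vesicle genes 9 were tested, and Scg2, a granin, and Ica1 were higher in both classes, Scg2 by 1.54 in amacrine and 1.86 in ganglion lines and Ica1 by 1.06 and 1.70. The list medians were 0.43 and 0.80. Over all genes, 1.49% were called higher in the amacrine class and 3.29% in the ganglion class.

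Between amacrine lines, ChAT had 4 of the 10 tested processing genes lower, Cpe, Pam, Qpct and Ctsl (list median -0.47), against 1.61% of all genes called lower there. Pam encodes the enzyme that amidates peptides, and Qpct the glutaminyl cyclase that forms a pyroglutamate end. Qpct read 14.9, 12.5 and 21.4 in ChAT, at -1.96 against the other amacrine lines (SE 0.36, adjusted p = 8.9e-05), and was higher in the Crh line by 2.30 (SE 0.36, adjusted p = 1.28e-06). In the PV ganglion line Qpct was below the median of all values at 6.33, 6.49 and 6.39, at -4.19 against the other ganglion lines (SE 0.39, adjusted p = 1.32e-11). The vesicle gene Scg2 read 919, 866 and 761 in ChAT, the highest set mean for that gene, but was not called there against the other amacrine lines. Scg3, another vesicle gene, was called higher in ChAT by 1.49 (SE 0.20, adjusted p = 5.37e-08), where 2.90% of genes were called. None of the 4 tested degrading enzymes among 8 was called in either class. Of 23 tested genes in the list of other neuropeptide precursors, which also holds Cbln4, none was called in the amacrine class. In the ganglion class 3 were higher, Gal, Adcyap1 and Nppb, where 3.29% of all genes were called higher.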

How the data were processed

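Arrays of 78 sorted samples were analysed. The deposited intensity values are on a linear scale and, per the submitters' processing notes, came from RMA in the oligo package with R 2.11.1 and mouse build mm9. Settings are not given in the sources used here. All 78 columns hold the same sorted values (largest difference 0). On 70 arrays the lowest values stand in order of probe set identifier, in runs of 10 or more. The highest end of these runs, 3.99, was taken as the floor, and 10.5% of values lie at or below it. An array design limits precision by its number of arrays.

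Log2 of floored values was fitted in limma 3.58.1 (R 4.3.3), with 1 mean per set over 78 arrays for lines and 22 line means for classes, moderated statistics with a trend, and Benjamini-Hochberg adjustment over 15130 genes in each comparison. Of 22347 probe sets, 19446 carry 1 gene symbol, and where a gene had several, that of highest mean intensity stands for it. By rule the named genes are the members, the 3 genes most like each over 22 line means, list genes called in a class comparison, and for receptors the line with the highest mean. List genes named from comparisons of single lines or of Arc sets, Cckbr and Arr3 were chosen after their values were seen. The members and lists were chosen with earlier results of these data known. Batch labels are lacking for Arc 2nd, Fbxo32 and d4, and in the fit with batch as a term Arc 2nd was taken as batch 2. Replicate numbers were checked as pairs: the mean correlation of residuals between sets was -0.000408 for the same number and 0.000303 for different numbers, so they were not used as pairs. The plan's alternatives cover the floor, filter, normalization, probe set choice, batch, reference lines and each array. The fit was tested on simulated data: of 200 genes changed by 1.5 log2 units among 15130, 84% were recovered for Crh against the other amacrine lines and 71% between Arc 1st and Arc 2nd. These shares hold for 200 genes changed at once, whereas 7 genes were called between those Arc sets in the data. They do not give the sensitivity for a member such as Tac1, whose SE there was 1.03. Gene positions and promoters are from RefSeq (GRCm38.p6), where 4 of 6 members matched. Figures were drawn with matplotlib 3.10.9 in python 3.11.15.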

Additional observations from a re-analysis of the deposited data

Results flagged for a closer look

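In each of 18 groups of line means (the 6 members in the amacrine, bipolar and ganglion classes), the gap between an extreme line and its nearest neighbour was divided by the range of the group and set against Dixon's critical value, which chance passes in about 1 of 20 groups. It was passed 5 times. Sst in Chrna3 was the highest of 9 amacrine lines with a gap of 0.913 of the range. Crh in the Crh line, which was selected by the Crh promoter, was the highest of 9 with 0.689, and Tac1 in ChAT the lowest of 9 with 0.564. Cck in PV was the lowest of 4 ganglion lines with 0.865. Crh in mGluR6 was the highest of 4 bipolar lines with 0.899, although its arrays read only 5.40, 3.56 and 3.29, of which 1 was above the floor.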

How the results depend on the processing

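Of 23 called member differences 10 kept their call under every alternative computed and none changed direction. These 10 were Cartpt in Arc, Crh, ChAT, Drd4 and Grik4, Cck in ChAT and Ier5, Tac1 in ChAT, Sst in Chrna3 and Crh in the Crh line. The last concerns a line selected by the promoter of the same gene. The 18 calls in amacrine lines became 11 with batch as a term, a fit that leaves out Fbxo32, and lay between 15 and 21 with 1 array left out. The 4 calls in ganglion lines lay between 2 and 4 with 1 array left out, lowest without Drd4 replicate 1. The 1 call in classes became 0 without the floor, in batch 1 lines alone and without the line b2, Drd4, Grik4 or Opn4, 2 without ChAT, 3 in batch 3 lines alone, and lay between 0 and 1 with 1 replicate number left out. Between Arc sets the count of 0 became 1 with a floor at the median of all values. With the replicate number as a block (replicate block), the counts were 18, 4, 1 and 0, and no call changed. Leaving out 4 amacrine arrays that stood alone in a member, chosen after their values were seen, gave 16 calls. Why calls were lost was not tested.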
